A study of Mus musculus with 12 samples.

Results

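The genes Xdh, Sin3b, Kif12, Eml6 and Tatdn2 were chosen by their array levels, which in the lungs of all 9 treated mice lay below those in the 3 control mice. They are 5 of 17009 genes with a probe on the array, and the array holds 8 probes for them: 2 each for Xdh, Kif12 and Eml6, and 1 each for Sin3b and Tatdn2. The difference between treated and control mice chose the genes, so it is given below as a description and was not tested. For these genes, tests are given only for differences among the 3 treated groups, which the choice did not compare. It did ask for low levels on all 9 treated arrays, which limits how far those groups can differ.

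RNA was measured in whole lung of FVB/N mice (FVB/NJ in the strain label), labelled female and 7 weeks old at the start, on 12 Agilent 1-colour arrays, 1 array per mouse. PBS mice received the saline vehicle each week for 16 weeks. LPS mice received lipopolysaccharide, the endotoxin of Gram-negative bacteria, intranasally once a week over 16 weeks, 5 ug at a time. In the NNK group the tobacco nitrosamine NNK was injected intraperitoneally in the opening 4 weeks at 3 mg per mouse. LPS/NNK mice received both agents. The labels describe the NNK schedule as biweekly in one field and semi-weekly in another, name no vehicle for the NNK mice, and place death a week after the final dose. The age of NNK mice at death, and whether lung tumours were part of the sampled tissue, are not given in the sources used here. Arrays are named as in the labels: numbers 1, 2 and 3 for PBS; 1, 5 and 6 for LPS; 2, 3 and 5 for NNK; 2, 3 and 6 for LPS/NNK.

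The 5 genes have different textbook roles. Xdh encodes xanthine oxidoreductase, a molybdenum enzyme that turns hypoxanthine into xanthine and xanthine into uric acid, and whose oxidase form releases superoxide and hydrogen peroxide. Sin3b encodes a scaffold of the Sin3 corepressor, which brings histone deacetylases to promoters and takes part in silencing E2F target genes when cells leave the cell cycle. Kif12 encodes a kinesin of epithelial cells, Eml6 a protein of the EML family that binds microtubules, and Tatdn2 a member of the TatD family of metal-dependent nucleases.

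The promoters of the genes are shown because the members were low on the same arrays, and so that sequence features can be set beside the values. Each window runs from 250 bases before to 50 bases after the RefSeq start of the gene in GRCm38.p6, 5′ to 3′ on the gene's own strand. Of the 5 genes 4 had an entry, and Xdh had none. Capitals mark matches, on either strand, to a TATA box (TATAAA), a GC box (GGGCGG) or an E-box (CACGTG). The search also covered the CCAAT box (CCAAT), a CRE (TGACGTCA) and an E2F core (TTTCGCGC).
Sin3b, chr8:72723020-72723319, plus strand: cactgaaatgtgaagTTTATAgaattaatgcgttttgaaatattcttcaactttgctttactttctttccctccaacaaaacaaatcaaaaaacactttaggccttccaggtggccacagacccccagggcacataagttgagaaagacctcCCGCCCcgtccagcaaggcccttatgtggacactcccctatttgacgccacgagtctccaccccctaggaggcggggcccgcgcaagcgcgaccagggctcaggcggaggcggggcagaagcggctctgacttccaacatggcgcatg
Kif12, chr4:63172082-63172381, minus strand: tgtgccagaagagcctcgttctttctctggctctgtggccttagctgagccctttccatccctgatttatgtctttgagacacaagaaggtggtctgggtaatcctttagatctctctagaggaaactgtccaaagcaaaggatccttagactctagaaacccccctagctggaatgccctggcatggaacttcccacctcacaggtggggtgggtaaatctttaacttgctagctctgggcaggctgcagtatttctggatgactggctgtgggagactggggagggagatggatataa
Eml6, chr11:30025984-30026283, minus strand: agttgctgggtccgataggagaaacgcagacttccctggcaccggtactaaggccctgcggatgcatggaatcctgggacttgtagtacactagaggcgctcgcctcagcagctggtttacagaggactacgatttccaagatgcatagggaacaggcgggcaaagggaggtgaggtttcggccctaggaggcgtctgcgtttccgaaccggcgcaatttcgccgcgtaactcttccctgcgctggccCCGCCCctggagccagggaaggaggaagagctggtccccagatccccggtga
Tatdn2, chr6:113696800-113697099, plus strand: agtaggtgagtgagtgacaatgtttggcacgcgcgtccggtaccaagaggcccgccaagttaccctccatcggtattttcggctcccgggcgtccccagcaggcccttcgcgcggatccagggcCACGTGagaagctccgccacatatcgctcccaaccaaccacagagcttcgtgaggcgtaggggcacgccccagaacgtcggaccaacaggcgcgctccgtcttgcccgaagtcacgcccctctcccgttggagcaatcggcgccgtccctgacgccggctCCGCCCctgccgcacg

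These 4 windows did not share a searched motif. The GC box occurred in Sin3b, Eml6 and Tatdn2 and in 35.7% of 32851 mouse promoter windows of the same length. The TATA box letters occurred in Sin3b alone of the 4 (13.6% of windows) and the E-box in Tatdn2 alone (7.15%). CCAAT (37.4% of windows), the CRE (1.79%) and the E2F core (0.323%) occurred in none of them. The GC content was 53.3% in Sin3b, 50.3% in Kif12, 60.3% in Eml6 and 66.3% in Tatdn2, against a median of 52.7% over all windows. CpG pairs numbered 14 in Sin3b, 1 in Kif12, 20 in Eml6 and 34 in Tatdn2, against a median of 7. A match to these letters describes the sequence and does not show that a factor binds there.

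Levels are log2 of the scanner's processed signal minus the array's 75th percentile over all probes, so that 0 is the 75th percentile of that array. The array as a whole differed between control and treated mice. The 75th percentile of the signal was 699 to 984 on the PBS arrays and 183 to 509 on the treated arrays, whereas the control RNA added at labelling (spike-in) had a median log2 signal of 9.05 to 10.09 on PBS arrays and 10.47 to 11.39 on treated arrays. Between 70.2% and 73.1% of spots were well above background in PBS, against 55.6% to 67.5% in the treated groups. Position on the slide followed the group, position 1 holding only PBS arrays, so position and PBS cannot be told apart. PBS 2 alone was scanned on a different day from the other arrays. No LPS array shared a slide with another array of the series. LPS therefore has no same-slide comparison, and its differences could not be fitted with slide as a fixed effect. Sex-linked genes split the PBS group: PBS 1 and PBS 2 had no Xist above background (-8.43 and -8.40), while there the Y-linked Ddx3y, Eif2s3y, Kdm5d and Uty were well above it, and PBS 3 and the 9 treated arrays showed the opposite. Lung markers were well above background on all 12 arrays, with Sftpc of alveolar type 2 cells at 8.41 to 10.97, Scgb1a1 of club cells at 5.68 to 8.27, Ager of alveolar type 1 cells at 4.63 to 5.97 and the endothelial Pecam1 at 2.16 to 3.39. The part of these differences in the results below was not tested, but values against PBS 3 alone and between arrays of the same slide are given.

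A treated array below every PBS array is common in these data. Of 21856 items tested (13648 of them named genes), 4730 (21.6%) had all 9 treated arrays below all 3 PBS arrays, and 4485 (20.5%) had all 9 above. The gap between the lowest PBS array and the highest treated array was at least 1 log2 unit in 725 items (3.32%) and at least 2 in 54 items (0.247%), and the 5 genes were among the 54. It measured 3.42 for Sin3b, 2.97 for Xdh, 2.92 for Eml6, 2.71 for Kif12 and 2.47 for Tatdn2. The treated values of Sin3b and Kif12 were below background, so their gaps have no exact size. These values chose the genes, and nothing is read from their place among the other items.

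**Figure D1:**
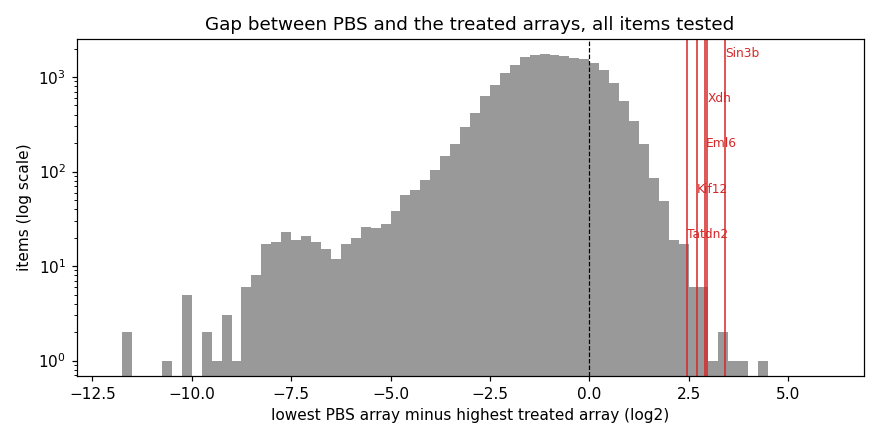
Histogram of the gap between the lowest PBS array and the highest treated array (log2 units, x axis) over 21856 items (y axis, log scale); red lines mark the 5 genes. The 5 genes sit at 2.47 to 3.42, in the right tail, where 54 items have a gap of at least 2.

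Xdh was well above background on all 12 arrays, the only gene of the group for which this held. Its brighter probe (A_51_P312121) stood at 1.95, 2.68 and 2.53 in PBS 1, 2 and 3. It stood at -2.27, -1.27 and -1.42 in LPS 1, 5 and 6, at -1.01, -1.01 and -1.42 in NNK 2, 3 and 5, and at -1.42, -2.33 and -2.23 in LPS/NNK 2, 3 and 6. The PBS arrays therefore lay above the array's 75th percentile and the treated arrays below it, with no overlap. Group means were 2.39 ± 0.38 in PBS, -1.65 ± 0.54 in LPS, -1.15 ± 0.23 in NNK and -1.99 ± 0.50 in LPS/NNK (SD, n = 3). PBS exceeded LPS 16.5-fold, NNK 11.6-fold and LPS/NNK 20.8-fold. In unscaled scanner units the PBS signals of 3812 to 6079 compared with 38.3 to 204 in the treated mice. This unscaled contrast includes the dimmer signal of the treated arrays as a whole. Their 75th percentile reached at most 509, and that of every PBS array was at least 699. The spike-in was brighter on the treated arrays. The part of these array-wide differences in the level of Xdh was not tested.

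The dimmer Xdh probe (A_52_P249965) showed the same order of PBS over treated. It read 0.33, 1.38 and 1.73 in PBS 1, 2 and 3 and between -3.04 and -1.50 in the 9 treated arrays, and was well above background on all 12. Its means were 1.15 ± 0.73 in PBS, -1.69 ± 0.24 in LPS, -1.77 ± 0.25 in NNK and -2.41 ± 0.66 in LPS/NNK (SD, n = 3). The PBS excess was smaller than with the brighter probe, at 7.16-fold over LPS, 7.55-fold over NNK and 11.8-fold over LPS/NNK, with a gap of 1.83. Xdh is thus the gene of the group in which 2 probes, each detected in every mouse, gave the same direction.

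The only Sin3b probe (A_51_P357983) was detected in the control lungs and not in the treated ones, where fewer spots were detected over the whole array. It stood at -1.23, -2.23 and -2.28 in PBS 1, 2 and 3, well above background each time, with unscaled signals of 144 to 419. On all 9 treated arrays it was not well above background, with readings between -7.60 (LPS/NNK 2) and -5.70 (NNK 3). The PBS mean was -1.91 ± 0.59 (SD, n = 3). Where no array of a group is above background, a fold is given as "at least", with each dim array entered at the lowest signal of any probe well above background there, or at its own reading where that was higher. On that basis PBS exceeded LPS at least 5.39-fold, NNK at least 8.02-fold and LPS/NNK at least 6.76-fold. The measured means were -6.33, -6.16 and -6.73. Folds given as at least, here and below, hold only for the processed signal with this floor. With another background correction, described below, treated minus PBS was -0.45 for Sin3b and -0.60 for Kif12.

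The brighter Kif12 probe (A_52_P221776) behaved in the same way. It stood at -1.06, -1.78 and -2.05 in PBS 1, 2 and 3 (mean -1.63 ± 0.51, SD, n = 3), and was not well above background on any of the 9 treated arrays, where it read -7.09 to -4.77. The measured treated means were -5.58 in LPS, -5.36 in NNK and -5.71 in LPS/NNK. PBS exceeded LPS at least 6.55-fold, NNK at least 9.73-fold and LPS/NNK at least 8.20-fold.

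The other Kif12 probe (A_51_P344586) was near or below background throughout. It was not well above background on any PBS array (-7.26, -6.27 and -6.68) or LPS array, and was well above it in NNK 2 and NNK 3 (-4.53 and -4.50) and in LPS/NNK 2 (-5.03). Its unscaled signals overlapped, with a PBS range of 6.41 to 12.3 inside the treated range of 3.8 to 17.8, so it gives no direction. It did not pass the detection filter, which asks for a probe well above background on every array of a group, and therefore had no part in the fit. The low level of Kif12 in treated lungs therefore rests on the brighter probe alone.

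Eml6 also depended on the probe. The brighter probe (A_52_P117221) stood at -0.35, -1.01 and -1.31 in PBS 1, 2 and 3. It stood at -5.12, -4.82 and -4.30 in LPS 1, 5 and 6, none of them well above background, at -4.87, -4.58 and -4.23 in NNK 2, 3 and 5, all well above it, and at -4.56, -4.26 and -4.85 in LPS/NNK 2, 3 and 6, of which only the first was. The means were -0.89 ± 0.49 in PBS, -4.75 ± 0.42 in LPS, -4.56 ± 0.32 in NNK and -4.56 ± 0.29 in LPS/NNK (SD, n = 3). PBS exceeded LPS at least 10.9-fold and NNK 12.7-fold. The measured LPS/NNK mean also gave 12.7-fold, which is not exact, since 2 of its 3 readings were not well above background.

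The dimmer Eml6 probe (A_51_P392776) showed little of this difference. It read -3.55, -3.59 and -3.74 in PBS, -4.84 to -4.13 over the LPS and NNK arrays, and -4.32, -3.93 and -3.36 in LPS/NNK 2, 3 and 6. LPS/NNK 6 lay above all PBS arrays, so the groups overlapped. The treated mean was 0.60 log2 units below the PBS mean (-0.60), against -3.73 for the brighter probe.

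Tatdn2, with its only probe (A_52_P677718), stood at -1.16, -0.06 and 0.55 in PBS 1, 2 and 3, the widest spread of the group among control mice (mean -0.23 ± 0.87, SD, n = 3). It stood at -4.59, -3.89 and -4.10 in LPS 1, 5 and 6, at -3.95, -4.06 and -4.34 in NNK 2, 3 and 5, and at -3.63, -4.09 and -4.96 in LPS/NNK 2, 3 and 6. The probe was well above background on 1 of 3 LPS arrays, 3 of 3 NNK arrays and 2 of 3 LPS/NNK arrays. The measured means differed 14.8-fold between PBS and NNK, 15.7-fold between PBS and LPS and 16.0-fold between PBS and LPS/NNK; the values for LPS and LPS/NNK include readings not well above background and are not exact. In a whole-tissue sample a lower level can mean fewer cells that express a gene or less RNA per cell, and these cannot be told apart here.

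**Figure D2:**
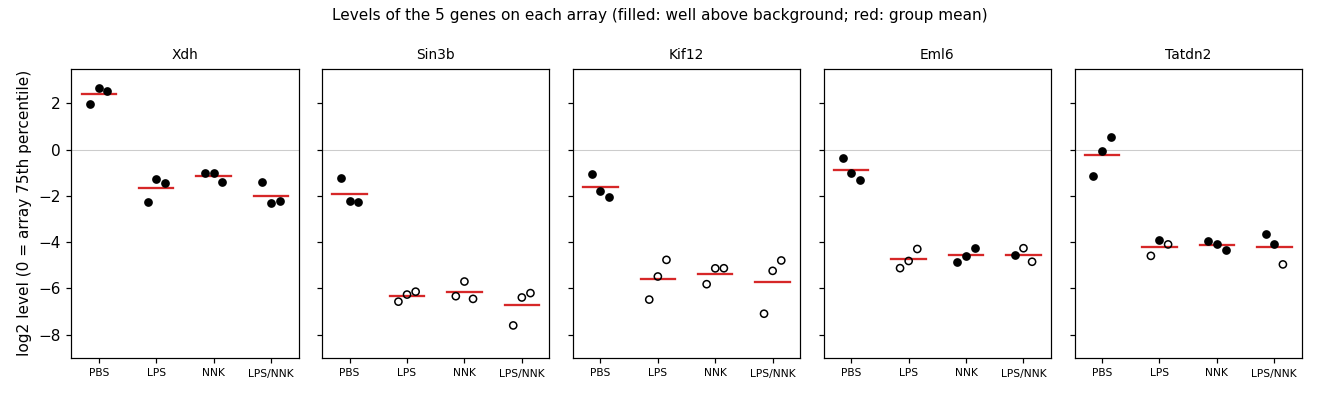
Level of each gene on each array (log2, 0 is the array's 75th percentile) by group, for the brighter probe where there are 2; filled points are well above background, open points are not, and red lines are group means. In every panel the 3 PBS points lie above all 9 treated points, and Sin3b and Kif12 have no filled treated point.

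**Figure D3:**
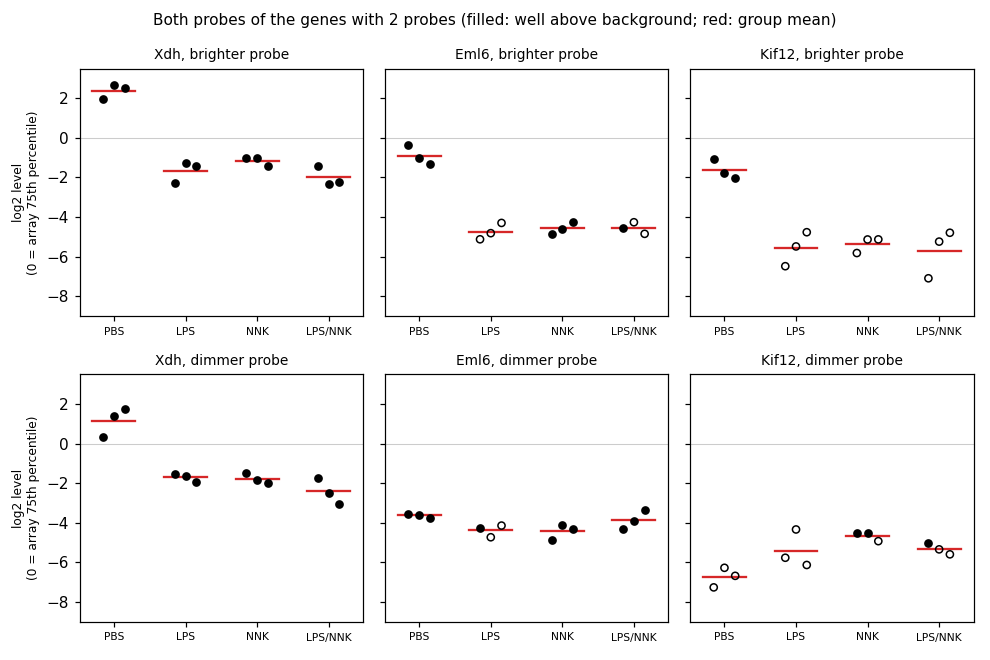
Both probes of the 3 genes with 2 probes (rows: brighter and dimmer probe; axes and symbols as log2 level by group). The dimmer probe keeps the PBS excess for Xdh, overlaps between groups for Eml6, and is well above background on 3 arrays only for Kif12.

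How often 2 probes of a gene part ways in this manner can be read from the whole array. There were 5329 genes with 2 or more probes whose brightest probe was tested. Whatever the brightest probe did, another probe lay below PBS on all 9 treated arrays in 1219 of the 5329 (22.9%). Another probe had a higher treated mean in 2637 (49.5%). Any other probe could count, and these were not filtered for detection. In 994 of the 5329 genes the brightest probe was lower on all 9 treated arrays, and in 622 of these (62.6%) another probe was too. At a gap of at least 1 there were 55 such genes, with another probe also below PBS on every treated array in 37 (67.3%) and another probe with a higher treated mean in 9 (16.4%). At a gap of at least 2 there were 4, of which 3 are Xdh, Kif12 and Eml6. Sin3b and Tatdn2 have a lone probe and so no such check. The positions of the probes within the transcripts were not used here.

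PBS 3 was the control with the labelled sex pattern. The choice of the genes fixes that they lie below it, and the sizes are given as a description. Against PBS 3 alone the gap to the highest treated array was 3.54 for Xdh, 3.42 for Sin3b, 2.71 for Kif12, 2.92 for Eml6 and 4.18 for Tatdn2, where 5956 items (27.3%) had all treated arrays below PBS 3. Treated minus PBS 3 was -4.13 for Xdh, -4.13 for Sin3b, -3.50 for Kif12, -3.31 for Eml6 and -4.73 for Tatdn2, beside -3.99, -4.50, -3.92, -3.73 and -3.95 against all 3 PBS arrays. Some treated arrays shared a slide with a PBS array. NNK 2 lay below PBS 3 of its slide by 3.54 for Xdh and LPS/NNK 6 below PBS 1 of its slide by 4.18; the choice of the genes fixes this sign too.

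The size of the difference depended on how the signal was processed. With normexp background correction of the unprocessed signals (offset 50), treated minus PBS was -3.17 for Xdh, -1.74 for Tatdn2, -1.25 for Eml6, -0.60 for Kif12 and -0.45 for Sin3b. All stayed below PBS, but by much less for the genes whose treated probes were near or below background. The offset is added to every signal and by itself shrinks differences between dim signals. Processed treated signals reached at most 5.89 for Sin3b and 9.86 for Kif12. The part of the offset in the smaller differences was not tested. In this setting the median of all items against PBS was 0.34 in LPS, 0.56 in NNK and 0.52 in LPS/NNK. Scaling by the spike-in gave -6.73 for Xdh, -7.24 for Sin3b, -6.66 for Kif12, -6.47 for Eml6 and -6.70 for Tatdn2, a setting in which the median of all items against PBS was -2.60 in LPS, -2.71 in NNK and -2.98 in LPS/NNK. Directions below are relative to the array's 75th percentile.

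**Figure D4:**
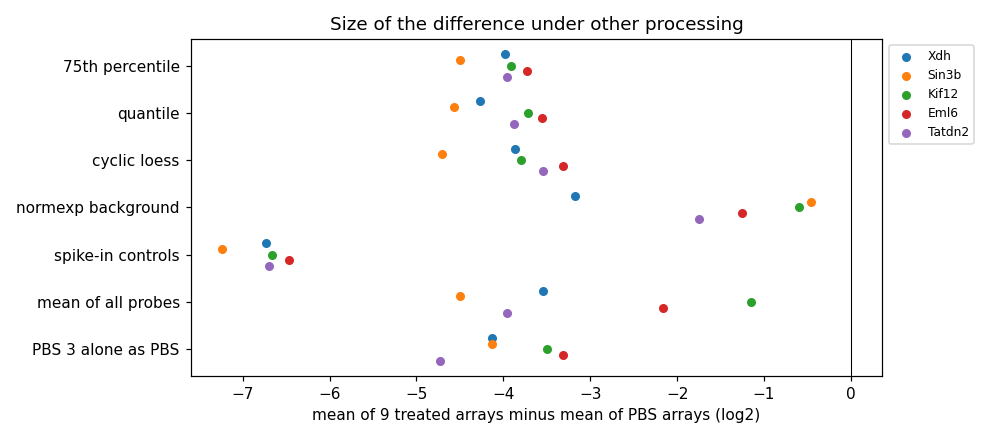
Mean of the 9 treated arrays minus the mean of the PBS arrays (log2, x axis) for each gene under 7 ways of processing (rows). All points lie left of 0; under normexp Xdh stays at -3.17 and Sin3b and Kif12 move to -0.45 and -0.60.

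The treated groups were then compared with each other. The choice of the genes did not compare these groups, but it asked for low levels in all of them, which limits how far they can differ. Sin3b and Kif12 gave no usable test here, since their fitted probes were not well above background on any of the 9 treated arrays. Xdh and Tatdn2 were not called in any of the 3 comparisons, nor was Eml6 in LPS/NNK against NNK (limma's moderated test, 2-sided, Benjamini-Hochberg adjusted p under 0.05 over all items). Of all items, 17.3% were called in LPS/NNK against NNK, 4.11% in LPS/NNK against LPS and 6.21% in LPS against NNK. The nearest to a call was Xdh in LPS/NNK against NNK, where LPS/NNK was the lower (-0.84, SE 0.33, 95% confidence interval -1.55 to -0.13, adjusted p = 0.0948); LPS/NNK 2 and NNK 5 both read -1.42. The dimmer Xdh probe gave -0.65 for the same comparison (SE 0.38, adjusted p = 0.253). Over all alternatives the adjusted p of the brighter probe ran from 0.0239 to 0.639. Leaving out LPS/NNK 2 gave the lowest of these, with a difference of -1.13. Single arrays also moved the counts over all items: LPS/NNK against NNK had 3773 calls, and 5818 without LPS/NNK 2, 1785 without LPS/NNK 3, 2024 without LPS/NNK 6, 1630 without NNK 2 and 1579 without NNK 3. LPS/NNK against LPS had 898 calls, and 4831, 79 and 109 without LPS/NNK 2, 3 and 6, 299, 359 and 570 without LPS 1, 5 and 6, 458 without NNK 3 and 563 without PBS 2. LPS against NNK had 1358 calls, and 709 and 2119 without LPS 1 and 6, and 869, 595 and 718 without NNK 2, 3 and 5.

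The remaining differences were not called. Xdh differed by -0.34 (interval -1.05 to 0.37, adjusted p = 0.536) between LPS/NNK and LPS, and by -0.51 (interval -1.22 to 0.21, adjusted p = 0.442) between LPS and NNK. Tatdn2 differed by -0.11 (interval -1.01 to 0.78), -0.03 and -0.08 in the 3 comparisons, and Eml6 by 0.01 (interval -0.66 to 0.67) between LPS/NNK and NNK on the brighter probe, which was well above background on 1 of 3 LPS/NNK arrays. The dimmer Eml6 probe, well above it on all 6 of those arrays, gave 0.56 (SE 0.29, adjusted p = 0.197). The Tatdn2 probe was well above it on only 1 LPS array and 2 LPS/NNK arrays. The width of these intervals leaves room for differences that 3 arrays per group could not show. The Sin3b probe and the brighter Kif12 probe were not well above background on any treated array, nor was the brighter Eml6 probe on any LPS array, so on these probes no fold among those groups can be given.

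Across all 12 arrays the genes of the group ran together, which the gap between PBS and treated arrays sets by itself. Pearson's r between pairs of the 5 genes was 0.85 to 0.97 over 12 arrays and -0.41 to 0.82 over the 9 treated arrays, with 0.82 for Sin3b and Kif12, both below background there, and 0.64 for Xdh and Tatdn2. The arrays form a PBS cluster and a treated cluster, share their scaling, and give no test. The 3 named genes most like each member over 12 arrays were Purg, Usp9x and Zfp790 for Xdh (r = 0.98 for each), Hikeshi, Stard6 and Acer3 for Sin3b (0.98 to 0.99), Pafah1b1, Appl1 and Sin3b for Kif12 (0.97 to 0.98), Syt6, Abhd18 and Btbd10 for Eml6 (0.97 to 0.98) and Xdh, Hoxb4 and Zfp790 for Tatdn2 (0.97). Among all other items, r reached 0.9 with Xdh in 739 (3.38%), with Sin3b in 807 (3.69%), with Kif12 in 1068 (4.89%), with Eml6 in 703 (3.22%) and with Tatdn2 in 333 (1.52%). The members were chosen by their gap, so the mostly smaller steps of the most like genes are a description only. Usp9x, a deubiquitinase, averaged -0.36 in PBS and -1.85 in treated arrays, and Pafah1b1, the dynein regulator LIS1, 3.21 and 1.75, whereas Syt6, a synaptotagmin, went from -1.07 to -4.36. Syt6 was well above background on 6 of 9 treated arrays, so its step is not exact. Stard6 was well above background on 0 of 9 treated arrays, so its r rests partly on readings near or below background.

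The relatives and pathway partners of each gene were examined from lists chosen for the roles above. In these lists treated groups were compared with PBS by limma, and the 3 comparisons share the PBS arrays. Over all items 26.1% were higher and 29.9% lower in LPS than in PBS, 27.8% and 23.7% in NNK, and 27.9% and 27.1% in LPS/NNK. The split depends on processing: of the calls, 46.5% (LPS), 54.0% (NNK) and 50.7% (LPS/NNK) were higher, against 64.4%, 82.4% and 79.5% after normexp, which moved the median of all items by 0.34, 0.56 and 0.52, and to 0.976%, 0.135% and 0.781% with spike-in scaling. Spike-in scaling shifts all genes of an array by the same amount, so a rise smaller than that shift reads as a fall there. Relative to the median of all items, no named call changed sign under it. Without that reference, the rises given below for Ada, Aprt, Mocs1, Klc3 and Eml3 were not called higher under it. Eml3 was then called lower in all 3 groups (-1.38, -1.66 and -1.60), and Mocs1 in LPS (-1.51) and LPS/NNK (-1.70). A count of list genes near these shares is no result about the list. Of the listed relatives, 1 had a gap of at least 1 log2 unit between PBS and treated arrays: Map2, a microtubule-associated protein of neurons (1.13), named after its value was seen.

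Around Xdh, purine breakdown genes moved in both directions. Of 20 purine catabolism genes tested (of 22 listed), 4 rose and 4 fell in LPS, 4 and 6 in NNK, and 6 and 7 in LPS/NNK, and their median change was -0.07, -0.45 and 0.17 beside -0.06, 0.04 and -0.04 for all items. With PBS 3 as the only control the counts were 4 and 0, 2 and 0, and 4 and 0. Ada, the deaminase that turns adenosine into inosine, rose by 2.14 in LPS (SE 0.29, adjusted p = 8.83e-05) and 3.00 in LPS/NNK (SE 0.29, adjusted p = 6.81e-06), and its change in NNK was 0.41 (adjusted p = 0.247). Aprt, which salvages adenine, rose by 1.82, 1.37 and 2.49 in LPS, NNK and LPS/NNK (adjusted p up to 0.00387), the NNK call being lost after normexp (0.73, adjusted p = 0.163).

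The enzymes related to Xdh by structure and cofactor were also mixed. Of 8 molybdenum hydroxylase and cofactor genes tested (of 14 listed), 3 rose and 2 fell in LPS, 3 and 1 in NNK, and 3 and 3 in LPS/NNK, with medians of 0.18, -0.03 and -0.06; with PBS 3 alone they were 0 and 2, 1 and 1, and 1 and 2. Aox1, an aldehyde oxidase of the same protein family as Xdh, fell in LPS (-1.16, SE 0.24, adjusted p = 0.00125) and LPS/NNK (-1.21, SE 0.24, adjusted p = 0.000858), and read -0.37 in NNK (adjusted p = 0.203). Both calls stood under every alternative with a test. Aox3, another aldehyde oxidase, was called lower in LPS/NNK (-1.02, SE 0.37, adjusted p = 0.0288), but not without PBS 2 (-0.91), PBS 3 (-0.78), LPS/NNK 3 (-0.88) or LPS/NNK 6 (-0.94), with the replicate numbers as a block (-0.96), with slide as a fixed effect (-1.13) or after normexp (-0.97), with adjusted p up to 0.12. Mocs2, which makes the molybdopterin that Xdh carries, fell in all 3 groups (-1.51 in LPS, -1.56 in NNK and -1.40 in LPS/NNK, adjusted p up to 0.00125); with PBS 3 alone the LPS/NNK call was lost (-1.23, adjusted p = 0.0559). Mocs1, which acts earlier in that synthesis, rose by 1.03, 1.53 and 1.25 (adjusted p up to 0.00235). Normexp ended these 3 calls (0.88, 0.91 and 0.96), and PBS 3 alone the LPS call (0.85).

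Sin3a, the close relative of Sin3b in the same corepressor, was not called against PBS: its changes were 0.17 in LPS, 0.44 in NNK and 0.05 in LPS/NNK. Of 28 Sin3 corepressor genes tested (of 32 listed), 7 rose and 8 fell in LPS, 7 and 7 in NNK, and 7 and 6 in LPS/NNK, with medians of -0.06, 0.08 and 0.00; with PBS 3 alone they were 5 and 2, 4 and 2, and 5 and 3, and with quantile normalization 4 and 11, 3 and 10, and 3 and 9. Brms1l, a subunit of the complex, fell by 1.28 in LPS (SE 0.21, adjusted p = 0.000321), fell by 1.11 in NNK (adjusted p = 0.00111) and fell by 1.49 in LPS/NNK (adjusted p = 8.7e-05). These calls stood under every alternative with a test. Hdac2, a histone deacetylase of the complex, fell in the 3 groups (-2.26, -2.14 and -1.39, adjusted p up to 0.00631), but after normexp read -0.45, 0.26 and 0.12 with no call; slide as a fixed effect also ended the LPS/NNK call (-0.99, adjusted p = 0.0792). Of 13 DREAM and E2F repressor genes tested (of 14), 2 rose and 6 fell in LPS, 1 and 5 in NNK, and 4 and 4 in LPS/NNK, with medians of -0.63, -0.47 and -0.33; with PBS 3 alone they were 1 and 1, 0 and 2, and 3 and 2. E2f5, a repressive E2F, fell too (-1.49, -1.12 and -1.71, adjusted p up to 0.00209). Normexp ended these calls (-0.74, 0.012 and -0.45), and PBS 3 alone the NNK call (-0.91).

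Genes of Kif12's family and other microtubule genes went both ways. Of 35 kinesin genes tested (of 46 listed), 8 rose and 11 fell in LPS, 8 and 8 in NNK, and 11 and 8 in LPS/NNK, with medians of -0.12, -0.06 and 0.23; with PBS 3 alone they were 4 and 3, 3 and 0, and 6 and 3. Klc3, a kinesin light chain, rose by 1.87 (SE 0.29), 2.93 and 2.81 in LPS, NNK and LPS/NNK (adjusted p up to 0.000203). Kif13a, a cargo motor of endosomes, fell in LPS/NNK (-2.0, SE 0.27, adjusted p = 6.69e-05) and in LPS (-0.95, adjusted p = 0.00961), the latter lost after normexp and with the replicate block, and read -0.48 in NNK (adjusted p = 0.151). Of 41 tubulin and microtubule-associated genes tested (of 44), 16 rose and 5 fell in LPS, 19 and 4 in NNK, and 14 and 5 in LPS/NNK, with medians of 0.35, 0.82 and 0.43. Quantile normalization gave 10 and 7, 11 and 7, and 11 and 8, and PBS 3 alone 8 and 2, 9 and 0, and 8 and 3. Tubb3, a beta-tubulin of neurons, rose by 2.85, 3.02 and 2.55 (SE 0.27, adjusted p up to 3.73e-05). Spike-in scaling ended these calls (0.32, 0.27 and -0.39), though relative to the median of all items it gave 2.92, 2.98 and 2.59. They stood under every other alternative with a test.

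The relatives of Eml6 differed among themselves. Of 4 EML genes tested (of 5), 1 rose and 1 fell in LPS, 1 and 2 in NNK, and 1 and 1 in LPS/NNK, with medians of -0.31, -0.38 and -0.35. With PBS 3 alone they were 1 and 0, 1 and 0, and 1 and 1. Eml3 rose by 1.16 (SE 0.22, adjusted p = 0.000745), 1.09 (adjusted p = 0.00148) and 1.35 (adjusted p = 0.000227) in LPS, NNK and LPS/NNK; after normexp it read 0.53 in NNK with no call. Eml5 fell in LPS (-1.62, SE 0.36, adjusted p = 0.00229), NNK (-1.18, adjusted p = 0.016) and LPS/NNK (-1.70, adjusted p = 0.00152). It read -0.52, 0.30 and -0.16 after normexp with no call, the NNK call was lost without NNK 2 (-0.98, adjusted p = 0.0701) and with slide as a fixed effect (adjusted p = 0.062), and with PBS 3 alone the calls in LPS (adjusted p = 0.0542) and NNK (0.153) were lost. With the mean of its probes Eml5 read -0.73 in NNK (adjusted p = 0.0585) and -0.59 in LPS/NNK (adjusted p = 0.115), neither called. Eml1 was not called, and Eml4 was called lower in NNK only (-0.62, adjusted p = 0.0417), a call that leaving out PBS 1, PBS 2, NNK 2, NNK 3, LPS/NNK 3 or LPS/NNK 6 ended (-0.51 to -0.62). It was also lost with normexp (-0.22), PBS 3 alone (-0.24), quantile normalization, cyclic loess, slide as a fixed effect, the replicate block and no filter (-0.53 to -0.62).

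Tatdn1, the relative of Tatdn2, was lower as well. It fell in LPS (-1.12, SE 0.33, adjusted p = 0.012), NNK (-1.28, adjusted p = 0.00674) and LPS/NNK (-0.93, adjusted p = 0.0297). No call remained after normexp (-0.55, -0.05 and -0.22) or with PBS 3 alone (-0.83, -0.99 and -0.64), and the LPS/NNK call was also lost without PBS 1 (-0.91), PBS 2 (-0.81) or LPS/NNK 2 (-0.58) and with quantile normalization (-0.70). Cyclic loess ended the calls in LPS (-0.72) and LPS/NNK (-0.60), and slide as a fixed effect those in NNK (-1.07) and LPS/NNK (-0.99). Of 20 DNA and RNA nuclease genes tested (of 25), 5 rose and 5 fell in LPS, 5 and 4 in NNK, and 5 and 3 in LPS/NNK, with medians of 0.19, -0.02 and 0.02; with PBS 3 alone they were 2 and 0, 1 and 0, and 4 and 1. The largest changes among them were rises. Dnase1l3, a DNase secreted by immune cells, rose by 5.22 (SE 0.40, adjusted p = 2.66e-06), 2.24 (adjusted p = 0.000749) and 5.95 (adjusted p = 1.04e-06) in LPS, NNK and LPS/NNK, the NNK call being lost with PBS 3 alone (1.63). Spike-in scaling ended the NNK call too (-0.50), though relative to the median of all items it gave 2.20. Trex1, a DNase of the cytosol, rose by 2.88 (SE 0.26), 1.82 and 3.30 (adjusted p up to 0.000262). Spike-in scaling ended these calls (0.34, -0.93 and 0.36), though relative to the median of all items it gave 2.94, 1.78 and 3.34. They stood under every other alternative with a test.

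The counts of the lists also moved with the background correction. After normexp the genes called higher and lower in LPS, NNK and LPS/NNK were 4 and 2, 2 and 3, and 5 and 2 for purine catabolism, and 1 and 2, 0 and 1, and 1 and 2 for the molybdenum list. They were 0 and 4, 1 and 5, and 2 and 3 for the Sin3 list, and 1 and 0, 2 and 1, and 4 and 0 for the DREAM list. They were 2 and 2, 10 and 1, and 9 and 2 for kinesins, 6 and 3, 8 and 2, and 13 and 4 for tubulins, and 4 and 1, 4 and 2, and 3 and 0 for nucleases. The EML list had 1 higher in LPS and in LPS/NNK and no other call. List medians near 0 changed sign with quantile normalization: purine catabolism in LPS/NNK (-0.28), the molybdenum list in LPS (-0.20), the Sin3 list in LPS/NNK (-0.30), kinesins in LPS (0.19) and NNK (0.14), and nucleases in NNK (0.13).

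**Figure D5:**
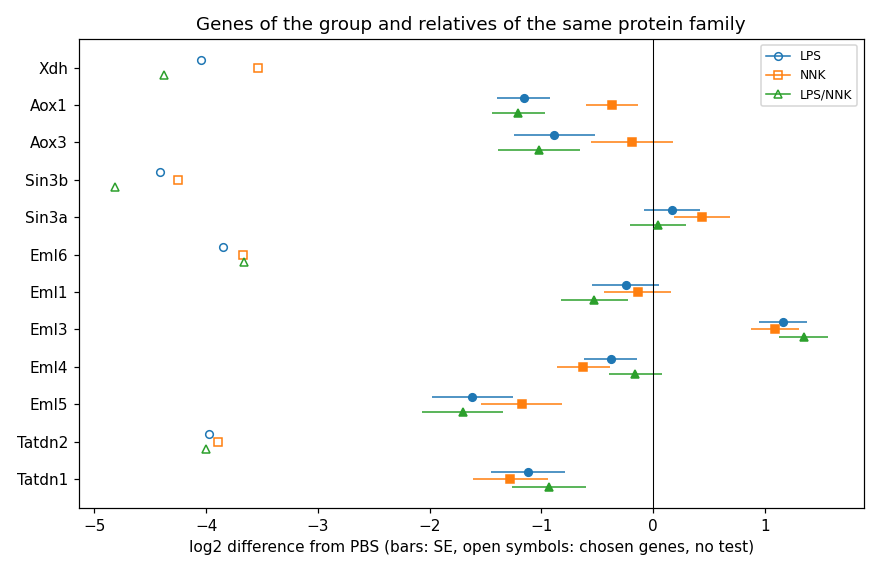
Log2 difference from PBS (x axis) for LPS, NNK and LPS/NNK; filled symbols with SE bars are family relatives (limma), open symbols are genes of the group, given as measured means with no test, of which those of Sin3b, and of Eml6 in LPS, rest on values not above background on any array and those of Eml6 in LPS/NNK and Tatdn2 in LPS and LPS/NNK partly so. The relatives lie between -1.70 and 1.35, and the genes of the group between -4.82 and -3.54. The genes of the group were chosen by these differences and the relatives were not, so the distance between them is a description only.

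The summed levels of cell type markers moved as follows beside the 5 genes. The 15 endothelial markers were well above background on all 12 arrays, and their summed level was 8.39 to 8.54 in PBS, 8.5 to 8.73 in LPS, 8.79 to 9.11 in NNK and 8.12 to 9.05 in LPS/NNK, with 2 of 15 below PBS on all treated arrays. Of 10 kidney tubule markers, 3 were well above background on all arrays and 2 on none, and the sums were 2.65 to 3.1 in PBS, 2.53 to 3.67 in LPS, 4.08 to 4.57 in NNK and 2.64 to 3.59 in LPS/NNK. Of 9 liver markers on the array, 4 were above background throughout and 1 never, with sums of 2.30 to 2.91, 1.46 to 1.99, 1.93 to 2.80 and 1.22 to 2.66 in the same order, so LPS lay below PBS. The 9 fat markers summed to 4.34 to 5.40, 5.11 to 5.79, 4.85 to 5.49 and 4.44 to 5.31, and the 10 heart and skeletal muscle markers to 6.37 to 7.36, 6.05 to 7.17, 6.45 to 7.83 and 5.80 to 7.03. None of the kidney, liver, fat or muscle markers lay below PBS on all 9 treated arrays. The 8 alveolar type 1 markers on the array summed to 8.53 to 8.64 in PBS, 8.30 to 8.55 in LPS, 8.85 to 9.01 in NNK and 8.27 to 8.92 in LPS/NNK, with 3 of 8 below PBS on all treated arrays. The 10 T cell markers were higher in the treated groups, at 3.57 to 3.86 in PBS, 6.15 to 6.56 in LPS, 4.30 to 4.61 in NNK and 6.71 to 7.58 in LPS/NNK. Macrophage sums lay above PBS in LPS and LPS/NNK and below it in NNK. B and plasma cell sums lay above PBS in LPS and LPS/NNK and overlapped it in NNK. Club and goblet, ciliated and erythroid sums lay above PBS in LPS and NNK and overlapped it in LPS/NNK. The part of such shifts in the level of the 5 genes was not tested.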

How the data were processed

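Each array is 1 mouse; its deposited scanner output holds 45018 spots (43379 after control spots) with a background-subtracted intensity, written by Agilent Feature Extraction (10.7.3.1 per the file headers, 10.7 per the labels). No spot was saturated. The series-level values are log2, deposited by the authors, and equalled those computed here within 0.000177; the submitters' processing notes name Partek, with no version.

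Outlier spots (39 to 99 on an array) were dropped, replicate spots averaged, and the 75th percentile over 41137 probes subtracted from log2 of the processed signal. RefSeq accessions (GRCm38.p6) gave 24355 probes (59.2%) a symbol. The detection filter, and the brightest probe per gene, left 21856 items. Group means were fitted to the 12 arrays together with lmFit and eBayes (limma 3.58.1, R 4.3.3; 8 residual degrees of freedom), and p-values were Benjamini-Hochberg adjusted over all items; the code was tested on simulated data. The p-values measure spread between mice, 3 a group, which limits the precision. Promoters and figures used Python 3.11.15 and matplotlib 3.10.9.

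The members and gene lists were chosen with earlier results of these data known. Named are the members, their family relatives, the 3 named genes most correlated with each member, per list up to 3 more genes of lowest p, and 5 sex-linked genes. Alternatives were normexp (on the median signal, since the files used here hold no mean signal), quantile, cyclic loess and spike-in scaling, other filters, probe averaging, slide and replicate blocks, leaving out arrays, and PBS 3 as the only control. The normexp signal, the other probes and the same-slide pairs were chosen after seeing the data.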

Additional observations from a re-analysis of the deposited data

How the results depend on the processing

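The treated minus PBS difference was not recomputed with slide or replicate blocks, and with detection on all 12 arrays for Xdh only. In the other alternatives it was negative, a sign that the choice of genes favours, except on the other Kif12 probe (1.61), which was not well above background on any PBS array and on 6 of 9 treated arrays. It moved by more than the spread between arrays with normexp (Xdh -3.17, Sin3b -0.45, Kif12 -0.60, Eml6 -1.25, Tatdn2 -1.74), spike-in scaling (-6.73, -7.24, -6.66, -6.47, -6.70), the mean of all probes (Xdh -3.55, Kif12 -1.15, Eml6 -2.16), the other probe (Xdh -3.11, Eml6 -0.60), cyclic loess (Eml6 -3.32), PBS 3 alone (Eml6 -3.31, Tatdn2 -4.73) and the same-slide pairs (Xdh -3.54, Eml6 -4.49). The cause was not tested. Probes near background limit Sin3b, Kif12, Eml6 and Tatdn2.

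Items called in LPS/NNK (against NNK, then LPS), in LPS against NNK, and in LPS, NNK and LPS/NNK against PBS numbered 3773, 898, 1358, 12242, 11264 and 12035. With normexp 377, 0, 228, 4346, 8338 and 6514 were called. With spike-in scaling they were 684, 93, 371, 19360, 19998 and 19987. LPS/NNK against LPS and the 3 comparisons with PBS gave 338, 19481, 17565 and 18658 without a filter, and 463, 5691, 4298 and 6616 with PBS 3 alone. Detection on all 12 arrays gave 804 for LPS against NNK, and slide as a fixed effect 6641 for NNK against PBS. Same-numbered arrays deviated together at r = -0.15 to 0.41, so the numbers were not taken as pairs; the replicate block gave 1890 for LPS/NNK against LPS. Leaving out 1 array gave 1579 to 5818, 79 to 4831, 595 to 2119, 10215 to 13179, 8657 to 12264 and 10190 to 12505. Under normexp no item was called in LPS/NNK against LPS by limma, with 1549 at an unadjusted p under 0.05.

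Uncalled signs turned. Xdh in LPS/NNK against LPS was 0.024 with normexp. Tatdn2 in that comparison was 0.39 with normexp and 0.042 with slide as a random block. Tatdn2 against NNK was 0.022 (quantile), 0.046 (cyclic loess), 0.068 (random block), 0.41 (fixed slide) and 0.031 (replicate block) in LPS/NNK, and 0.20, 0.22, 0.13 (spike-in), 0.026 (random block) and 0.69 (replicate block) in LPS. Eml6 in LPS/NNK against NNK was -0.30 (normexp), -0.20 (spike-in), -0.063 (random block) and -0.19 (fixed slide). Leaving out 1 array gave Tatdn2 -0.33 to 0.33 against LPS and -0.41 to 0.25 against NNK in LPS/NNK, and -0.23 to 0.12 in LPS against NNK, and Eml6 -0.15 to 0.17 in LPS/NNK against NNK. Normexp turned Eml5 (0.30), E2f5 (0.012) and Hdac2 (0.26) in NNK and Hdac2 in LPS/NNK (0.12) against PBS. It also raised the median of all items, and relative to that median these calls kept their sign (-0.27, -0.55, -0.30 and -0.40). On that scale the listed genes Eml3 (-0.035), Mnt (-0.038) and Rnaseh2c (-0.069) turned in NNK instead. Of 87 calls of named genes, 45 stood under normexp, 64 with PBS 3 alone and 78 with the replicate block; of the 57 that could be fitted with slide as a fixed effect, 44 stood.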
